A study of Mus musculus with 18 samples.

Results

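A set of 9 receptors that deliver or tune costimulatory signals in T cells were examined: Cd28, Icos, Tnfrsf9, Cd27, Cd226, Slamf1, Cd48, Cd244 and Tnfrsf25. They were chosen by name, with earlier results of these data known. They are 9 of the 37236 genes in the deposited table, and all 9 passed the filter (average of 10 or more normalized counts over the samples) that left 11992 genes to test. The RNA came from CD3+ T cells sorted out of B16-OVA melanomas, a mouse melanoma line that expresses ovalbumin, at day 14 after 500000 tumor cells were placed under the skin of C57BL/6 mice aged 8 to 12 weeks. The mice were wild type (Nr2f6+/+) or lacked the orphan nuclear receptor NR2F6 in every cell (germline Nr2f6-/-, backcrossed 8 times), and received 0.5 mg of an antibody that blocks PD-L1 (clone 10F.9G2) or the control antibody IgG2b from day 3. The groups held 3 samples each of Nr2f6+/+ IgG2b and Nr2f6-/- IgG2b, and 6 samples each of Nr2f6+/+ anti-PD-L1 and Nr2f6-/- anti-PD-L1, and the question put to them was whether loss of NR2F6, PD-L1 blockade or both altered these receptors. CD4+ and CD8+ cells were pooled before the sort, so each sample is a mixture of both, and fewer cells of a type and less RNA per cell cannot be told apart.

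A T cell that recognizes its antigen needs a further signal to divide, survive and make cytokines, and costimulatory receptors supply it. CD28 and ICOS are immunoglobulin-family receptors, of which CD28 is present on naive T cells and ICOS appears after activation. 4-1BB (Tnfrsf9), CD27 and DR3 (Tnfrsf25) belong to the TNF receptor family and signal largely through TRAF adaptors. CD226 (DNAM-1) competes with the inhibitory receptor TIGIT for the ligand CD155, and SLAMF1, CD48 and CD244 (2B4) belong to the SLAM family, in which CD48 is the ligand of CD244 and, in mice, of CD2.

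Libraries were made with a 3' end kit, which counts about 1 tag per transcript, and the values below are normalized counts, that is reads divided by the size factor of the sample, not by transcript length. Between 12473391 and 18609482 reads per sample fell on genes, and 3 reads correspond to 2.46 to 3.64 normalized counts. Nr2f6 was at 0 in all 9 knockout samples and between 20.2 and 201 in the wild-type samples, which separated the genotypes under anti-PD-L1 (exact permutation test, two-sided p = 0.00216) and under IgG2b (p = 0.1, exact permutation test), the smallest values that 6 against 6 and 3 against 3 samples can give. Replicates 1 to 3 of each group carry library numbers 28 to 39 and replicates 4 to 6, which exist only under anti-PD-L1, carry 43 to 48; these are called the first and second library sets. The labels do not say that samples came from separate mice, so p-values measure the spread between these samples.

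The 4 groups also differed in markers of other cells. Summed over 14 macrophage and monocyte genes, the level was 9385 to 20387 normalized counts in the 6 IgG2b samples and 926 to 6814 in the 12 anti-PD-L1 samples, and Cd163 was at 0 in all samples of the Nr2f6+/+ anti-PD-L1 group. Lyz2, the lysozyme gene of macrophages, was lower under anti-PD-L1 by 2.83 on the log2 scale in the wild type (limma, adjusted p = 0.000387) and by 2.87 in the knockout (adjusted p = 0.000318). In Nr2f6-/- anti-PD-L1 against Nr2f6+/+ IgG2b, Lyz2, C1qb, Adgre1, Apoe and Mrc1, all macrophage genes, fell, with log2 differences of -3.61, -3.47, -7.07, -5.62 and -6.40 (adjusted p of 3.75e-06 to 0.0428), and in the knockout C1qb was also lower under anti-PD-L1 (-3.27, adjusted p = 0.0123). The 6 B cell markers summed to 44.8 to 286 in Nr2f6+/+ IgG2b, 0 to 5.20 in Nr2f6-/- IgG2b, 0 to 25.5 in Nr2f6+/+ anti-PD-L1 and 14.8 to 203 in Nr2f6-/- anti-PD-L1, with Cd79a at 0 in all 18 samples. Natural killer cell markers summed to 978 to 4411 under IgG2b and 1999 to 6633 under anti-PD-L1, with Ncr1 and Klra4 at 0 in both IgG2b groups; the bead selection and the CD3 sort select against such cells, and CD8+ T cells express several of these genes too. The 6 melanocyte markers summed to 2463 to 4557 in Nr2f6+/+ IgG2b and 1148 to 2336 in Nr2f6-/- IgG2b, which did not overlap, and to 2013 to 7120 and 736 to 4353 under anti-PD-L1, where 5 of 5 tested had lower estimates in the knockout (median -1.03, 2 at an unadjusted p under 0.05). Dendritic cell markers summed to 789 to 1022, 690 to 1031, 301 to 1386 and 25.2 to 1126 in the same order, and 5 of 5 tested also had lower estimates in the knockout under anti-PD-L1 (median -0.57, 1 at an unadjusted p under 0.05). Of 13 macrophage and monocyte genes tested there, 10 had lower and 3 higher estimates in the knockout (median -1.04). Among them 4 were lower at an unadjusted p under 0.05 in limma, against 5.07% of all genes. All 9 T cell markers were detected in every group, with sums of 63459 to 85182 under IgG2b, 73775 to 96378 in Nr2f6+/+ anti-PD-L1 and 94594 to 105856 in Nr2f6-/- anti-PD-L1. How far these cell markers bear on the receptors was not tested.

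Icos was the highest of the receptors, with a median over the 18 samples of 7420 normalized counts, followed by Cd48 (5220), Tnfrsf9 (3742), Cd27 (3521), Cd28 (2473), Cd226 (686), Slamf1 (564), Cd244 (285) and Tnfrsf25 (7.74). Tags are counted once per transcript, so this order compares tags and not length-scaled levels. Cd28 exceeded Cd226 in 18 of 18 samples and their ranges did not overlap, which split the receptors into an abundant set of 5 and a lower set of 4. All other neighbors in the order overlapped: Tnfrsf9 was above Cd27 in only 8 of 18 samples, and Cd226 was above Slamf1 in 11 of 18. Icos ranked at the 97.6th percentile of mean level among the genes tested and Cd244 at the 49.9th.

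**Figure D1:**
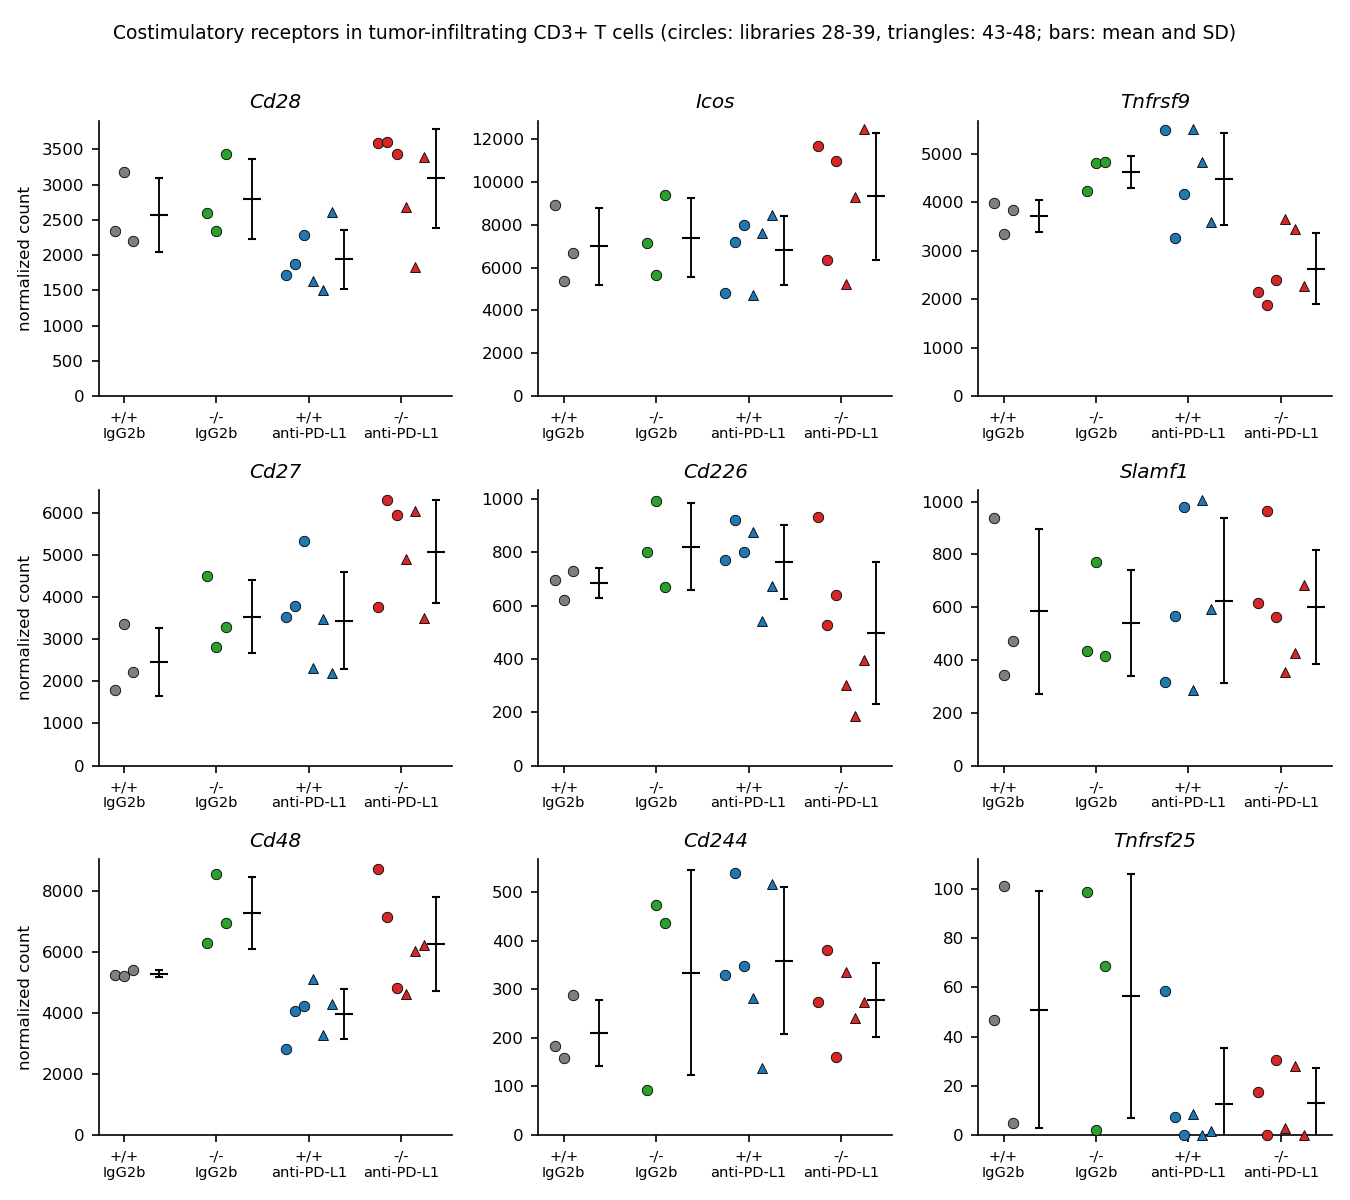
Normalized counts of the 9 receptors (y axes, each starting at 0) in every sample of the 4 groups (x axes), with circles for the first and triangles for the second library set and bars for the mean and SD. Tnfrsf9 lay between 1890 and 3650 in Nr2f6-/- anti-PD-L1 samples, and Cd48 lay between 2820 and 5135 in Nr2f6+/+ anti-PD-L1 samples, below both IgG2b groups.

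Between the 2 genotypes under PD-L1 blockade, 4 receptors had higher means in the knockout and 2 had lower means at an unadjusted p under 0.05, and 0 of 9 passed the adjusted threshold. Cd28, Cd48 and Icos lay 1.58-fold, 1.57-fold and 1.34-fold above the wild type and Cd27 lay 0.59 above it on the log2 scale, while Tnfrsf9 and Cd226 lay at 0.581 and 0.582 of it. Of all genes tested, 9.73% reached that unadjusted level (4.66% higher and 5.07% lower), 0.175% passed the adjusted threshold and 0.592% had groups that did not overlap. Among the 9 receptors, 6 reached it and 0 had groups that did not overlap. The receptors were chosen with earlier results of these data known, and Cd28 and Cd48 stand in the study's own list of deregulated genes. The count of 6 is therefore not independent evidence. The median log2 difference was 0.41 over the receptors and -0.0049 over all genes tested. The receptor median was the estimate of Tnfrsf25 itself, a gene near the limit of detection, with an interval from -2.42 to 3.24. This median therefore gives no reliable size for a shift of the receptors as a set. In the other comparisons the receptors below an unadjusted p of 0.05 numbered 0 for the genotypes under IgG2b (all genes 5.35%), 1 for blockade in the wild type (7.24%), 2 for blockade in the knockout (9.7%), 2 for the knockout under blockade against the wild type under IgG2b (9.04%) and 2 for the knockout under IgG2b against the wild type under blockade (11.2%). At the adjusted threshold 1 receptor passed, in the last of these; all genes passed at 0%, 0.242%, 0.325%, 0.617% and 0.459%. These comparisons share samples with each other.

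**Figure D2:**
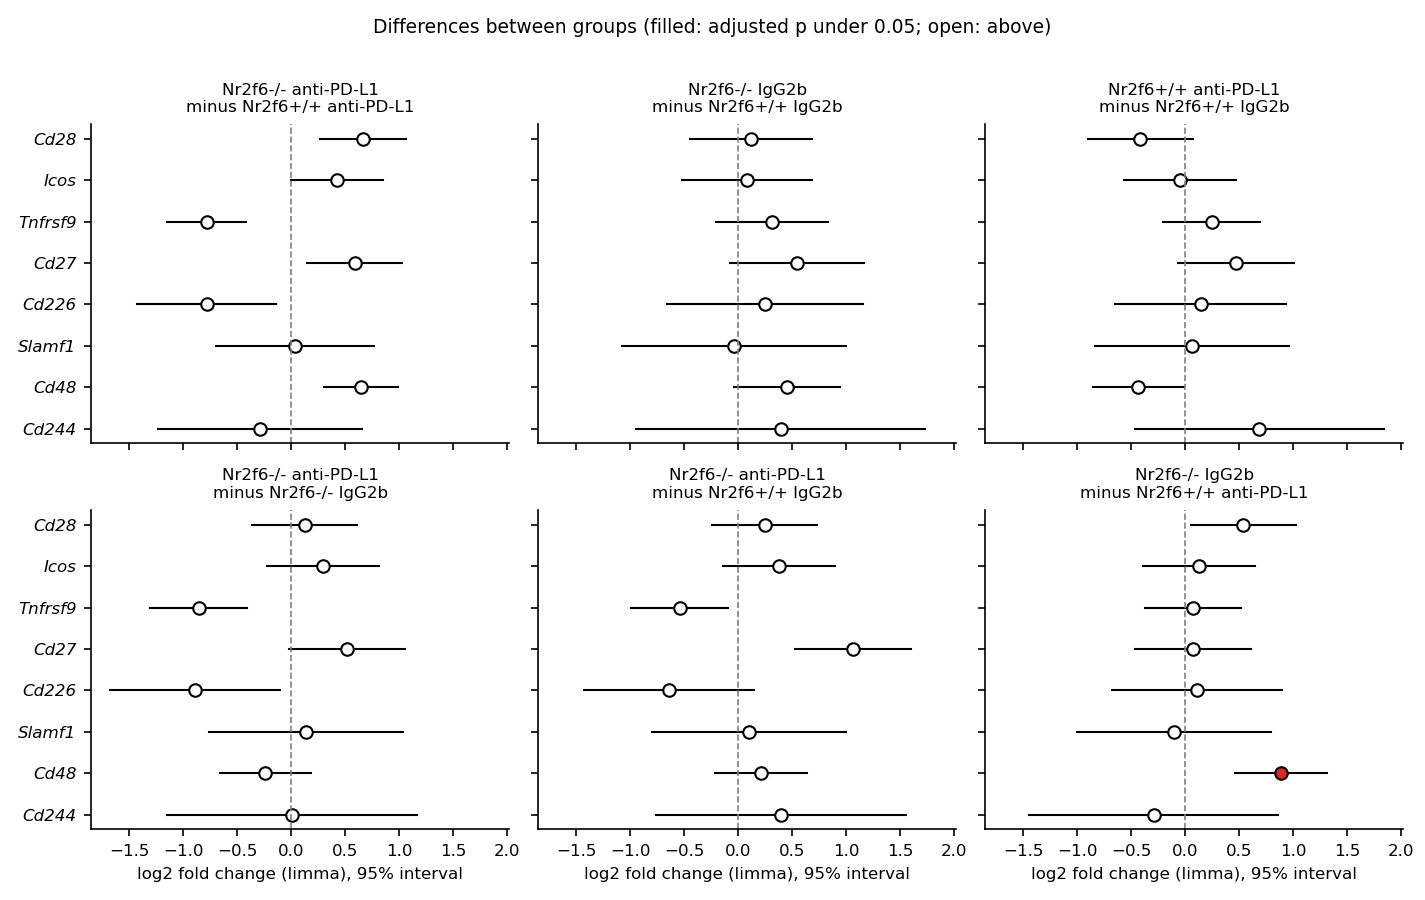
Log2 fold changes from limma (x axes) with 95% intervals for 8 receptors (y axes) in the 6 comparisons between groups; Tnfrsf25 is left out because many of its values lie at the limit of detection. Filled points passed an adjusted p of 0.05, which only Cd48 did, in Nr2f6-/- IgG2b against Nr2f6+/+ anti-PD-L1.

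Cd28 encodes the receptor for CD80 and CD86 and lies at chr1:60716800-60773359 on the plus strand (GRCm38, the assembly also named mm10). Its normalized counts were 2345, 3177 and 2199 in Nr2f6+/+ IgG2b, and 2599, 2347 and 3437 in Nr2f6-/- IgG2b. Under anti-PD-L1 they ran from 1510 through a median of 1798 to 2608 in the wild type and from 1829 through 3413 to 3609 in the knockout. Thus 5 of 6 knockout samples lay above the wild-type mean, and the groups overlapped only through knockout replicate 5. The difference under blockade was 0.66 on the log2 scale (SE 0.195, 95% interval 0.26 to 1.06, limma adjusted p = 0.214), and DESeq2 gave it an adjusted p of 0.0445. DESeq2 was the only 1 of 14 alternatives below 0.05, and 0 of 18 fits that left out 1 sample were. Within the first library set it was 0.86 and within the second 0.46. Under IgG2b the genotypes differed by 0.12 (95% interval -0.44 to 0.68, adjusted p = 1). Cd28 stands in the study's own list of deregulated genes drawn from these samples, so its direction is not independent evidence. The legend of that list gives n = 5 for each anti-PD-L1 group, against 6 samples here, and the study tested with DESeq2.

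Icos lies on the same chromosome at chr1:60977927-61000320, 205 kb beyond the end of Cd28, with the inhibitory receptor gene Ctla4 between them. It measured 8942, 5395 and 6681 in Nr2f6+/+ IgG2b and 7169, 5678 and 9387 in Nr2f6-/- IgG2b. Under anti-PD-L1 it ranged from 4734 to 8476 in the wild type (median 7420) and from 5246 to 12499 in the knockout (median 10138). The knockout samples overlapped most of the wild-type range and went beyond it, with 4 of 6 above the wild-type mean. The log2 difference was 0.42 (95% interval 0.00063 to 0.85, adjusted p = 0.513). In the other 5 comparisons between groups the estimates for Icos ran from -0.048 to 0.38 with intervals that included 0, and 4 of these 5 changed sign under at least 1 alternative.

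Tnfrsf9 encodes 4-1BB, a TNF receptor that T cells put on their surface after activation, and lies at chr4:150914562-150946102 on the plus strand. Its normalized counts were 3983, 3355 and 3834 in Nr2f6+/+ IgG2b and 4245, 4806 and 4837 in Nr2f6-/- IgG2b. Under anti-PD-L1 they were 3271 to 5512 in the wild type (median 4508) and 1890 to 3650 in the knockout (median 2334). All 6 knockout samples under blockade lay below the wild-type mean under blockade, and also below each of the 3 knockout samples under IgG2b. Against the wild type under blockade the level was lower by 0.78 on the log2 scale (estimate -0.78, SE 0.179, limma adjusted p = 0.0634), the 27th smallest p of the 11992 genes. Within the first library set the difference was -0.98 and within the second -0.58. The call rested on the fit and on single libraries: the adjusted p was 0.00424 in DESeq2, 0.0810 in edgeR and 0.0313 to 0.0334 with the replicate number as a block or the library set as a covariate, and leaving out wild-type replicate 2, knockout replicate 4 or knockout replicate 5 gave 0.0376, 0.0285 and 0.0370.

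The effect estimates of PD-L1 blockade on Tnfrsf9 had opposite signs in the 2 genotypes. In the knockout the anti-PD-L1 samples were lower than the IgG2b samples by 0.85 on the log2 scale (estimate -0.85, SE 0.22, adjusted p = 0.103), and these groups did not overlap, as was so for 5.12% of all genes. The wild type had an estimate of 0.24 (95% interval -0.21 to 0.69, adjusted p = 0.874), which became -0.16 after scaling to the Cd3 genes. That scaling moved the median of all genes by -0.39 in this comparison. The difference between the genotypes in the effect of the antibody was -1.10 (95% interval -1.73 to -0.46, adjusted p = 0.755), with an unadjusted p under 0.05 that 4.97% of all genes also had, while 0% passed after adjustment. Within the first library set alone the effect in the knockout was -1.11 (adjusted p = 0.0672), and over all samples its adjusted p was 0.0201 in DESeq2 and 0.0481 without Nr2f6-/- anti-PD-L1 replicate 4. The macrophage marker sum, 9385 to 13116 in Nr2f6-/- IgG2b and 926 to 2618 in Nr2f6-/- anti-PD-L1, moved with this comparison, and its part was not tested.

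Cd27 encodes the TNF receptor for CD70 that supports survival of activated and memory T cells, and lies at chr6:125232622-125237010 on the minus strand, with the small RNA gene Mir8113 inside its exons. Its 3 Nr2f6+/+ IgG2b samples measured 1793, 3373 and 2214, and the Nr2f6-/- IgG2b samples 4498, 2813 and 3290. The wild type under anti-PD-L1 ran from 2201 to 5340 (median 3511), and the knockout under anti-PD-L1 from 3505 to 6318 (median 5434). Either factor alone had a higher mean than neither, but the groups overlapped and the intervals of these differences included 0. The genotypes under IgG2b differed by 0.55 on the log2 scale (interval -0.074 to 1.16, limma adjusted p = 0.949). Blockade in the wild type had an estimate of 0.47 (interval -0.064 to 1.01, limma adjusted p = 0.763). The group with both factors had the highest mean. Its samples all lay above those of Nr2f6+/+ IgG2b, a separation found for 6.17% of all genes, with a log2 difference of 1.06 (SE 0.262, adjusted p = 0.0542). The adjusted p was 0.0134 in DESeq2, 0.0178 with the library set as a covariate and 0.0165 with the replicate block, and it ran from 0.0369 to 0.364 with 1 sample left out. The macrophage sums of these 2 groups were 926 to 2618 and 16028 to 20387, and the T cell marker sums 94594 to 105856 and 63459 to 76554. After scaling to the summed Cd3d, Cd3e and Cd3g counts, a choice made after seeing the data, the difference was 0.53 (adjusted p = 0.302), while the median of all genes moved by -0.52. Against the wild type under blockade Cd27 was 0.59 higher (adjusted p = 0.349), with 0.33 in the first library set and 0.85 in the second.

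Tnfrsf25 encodes DR3, the receptor for TL1A, and lies at chr4:152115934-152120119 on the plus strand. It was near the limit of detection, with normalized counts of 46.6, 101 and 4.98 in Nr2f6+/+ IgG2b, 98.9, 1.88 and 68.7 in Nr2f6-/- IgG2b, 0 to 58.5 in Nr2f6+/+ anti-PD-L1 and 0 to 30.4 in Nr2f6-/- anti-PD-L1. It was at 0 in 4 of the 12 anti-PD-L1 samples, and samples of 1 group spanned the range from almost no reads to near 100. No difference could be detected at this depth: the interval of the genotype difference under blockade ran from -2.42 to 3.24 on the log2 scale.

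Cd226 lies on chromosome 18 and encodes the activating receptor for CD155 (Pvr). Its values were 698, 622 and 731 in Nr2f6+/+ IgG2b and 800, 993 and 670 in Nr2f6-/- IgG2b. In Nr2f6+/+ anti-PD-L1 they were 541 to 922 (median 786), and in Nr2f6-/- anti-PD-L1 187 to 933 (median 461). The knockout samples under blockade split by library set, with 933, 525 and 639 in the first set and 302, 187 and 396 in the second. The wild-type means of the sets were 831 and 697. The genotype difference under blockade was -0.78 (SE 0.315, adjusted p = 0.393), made up of -0.29 in the first set and -1.28 in the second. The difference between knockout anti-PD-L1 and knockout IgG2b was -0.89 (adjusted p = 0.439) over all samples but -0.26 in the first set, the only set that holds both groups.

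Cd48 encodes a lipid-anchored surface protein of most leukocytes and lies at chr1:171682009-171705258 on the plus strand. Its 3 Nr2f6+/+ IgG2b samples were close together at 5236, 5204 and 5420, and the Nr2f6-/- IgG2b samples were at 6291, 8579 and 6972. Under anti-PD-L1 the wild type ran from 2820 to 5135 (median 4160) and the knockout from 4623 to 8747 (median 6144). In each treatment the knockout mean was higher, and in the wild type all 6 anti-PD-L1 samples lay below all 3 IgG2b samples. Cd48 stands in the study's own list from these samples too, so its direction is not independent evidence.

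Cd48 was the only receptor that passed the adjusted threshold in any comparison. It was higher in Nr2f6-/- IgG2b than in Nr2f6+/+ anti-PD-L1, the groups that each carry a different one of the interventions, by 0.89 on the log2 scale (SE 0.207, 1.85-fold, limma adjusted p = 0.0463), with 3 of 3 samples above all 6. In this comparison 0.459% of all genes passed and 5.36% had groups that did not overlap. The call was marginal: the adjusted p was 0.0583 in edgeR, 0.0028 in DESeq2, 0.131 with the library set as a covariate and 0.184 with the replicate block, and it stayed below 0.05 in only 4 of the 18 fits that left out 1 sample (without Nr2f6+/+ anti-PD-L1 replicate 4 or Nr2f6-/- anti-PD-L1 replicate 1, 3 or 4), where it ran from 0.0301 to 0.243. Both groups also differed in macrophage markers (sums of 9385 to 13116 against 1664 to 6814, Lyz2 higher by 2.08 in the former, adjusted p = 0.00623) and in melanocyte markers (median of 5 genes -1.40, 3 lower at an unadjusted p under 0.05), and the part of these cells in the value of Cd48 was not tested. Under blockade the genotype difference of Cd48 was 0.65 (SE 0.169, adjusted p = 0.113, 0.0121 in DESeq2), with 6 of 6 knockout samples above the wild-type mean, and was 0.88 and 0.42 in the first and second library sets. For this difference DESeq2 was the only 1 of 14 alternatives with an adjusted p below 0.05, and 0 of 18 fits that left out 1 sample were. Here the macrophage sums were 926 to 2618 in the knockout and 1664 to 6814 in the wild type. Under IgG2b the genotypes did not overlap in Cd48 or in Tnfrsf9, 2 of 9 receptors against 14.2% of all genes, with log2 differences of 0.45 (adjusted p = 0.937) and 0.32 (adjusted p = 0.989). These IgG2b groups did not overlap in macrophage sums either (16028 to 20387 in the wild type, 9385 to 13116 in the knockout). Their T cell marker sums, 63459 to 76554 and 80336 to 85182, were also apart, and the part of these cells was not tested. Within the wild type PD-L1 blockade went with an estimate of -0.44 for Cd48 (adjusted p = 0.675), and its groups did not overlap, as for 4.54% of all genes.

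Slamf1 and Cd244, the other SLAM receptors of the set, lie near Cd48: Cd48 ends 61.9 kb before Slamf1 and begins 72.3 kb after the end of Cd244. Another SLAM gene, Slamf7, lies between Cd244 and Cd48. Slamf1, a receptor that binds itself on a neighboring cell, lies at chr1:171767127-171801184 and was at 939, 343 and 470 in Nr2f6+/+ IgG2b, at 435, 772 and 414 in Nr2f6-/- IgG2b, from 286 to 1007 in Nr2f6+/+ anti-PD-L1 and from 356 to 964 in Nr2f6-/- anti-PD-L1. Its group means, 540 to 624, were closer together than the samples within any group. Cd244, named Cd244a in the GENCODE annotation, lies at chr1:171559193-171609746 and was at 184, 159 and 289 in Nr2f6+/+ IgG2b, at 92.3, 475 and 436 in Nr2f6-/- IgG2b, from 138 to 540 in Nr2f6+/+ anti-PD-L1 and from 162 to 381 in Nr2f6-/- anti-PD-L1. Under blockade the genotype difference was 0.036 for Slamf1 (95% interval -0.70 to 0.77) and -0.29 for Cd244 (95% interval -1.23 to 0.66), and both estimates changed sign under at least 1 alternative. Both intervals include the estimate for Cd48. The 3 receptors thus had different estimates, but the differences between them were not tested.

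Sequences upstream of the receptors with the smallest adjusted p in a comparison (Tnfrsf9, Cd27 and Cd48) are shown because the deleted factor is a DNA-binding receptor; they were picked after the values were seen. They come from RefSeq (GRCm38.p6), cover 250 bases before to 50 after a start and read 5' to 3' along the gene. Entries were found for 6 of the 9 receptors and not for Cd28, Icos or Cd226. Capitals mark AGGTCA (the element bound by many nuclear receptors, TGACCT on the other strand), TGANTCA (AP-1) and GGAAAA (the core bound by NFAT, TTTTCC on the other strand), each searched on both strands, and no matches overlapped. The windows are chr4:150919905-150920204 and chr4:150927749-150928048 for 2 starts of Tnfrsf9, chr6:125236978-125237277 (minus strand) for Cd27 and chr1:171681742-171682041 for Cd48.
Tnfrsf9, first start: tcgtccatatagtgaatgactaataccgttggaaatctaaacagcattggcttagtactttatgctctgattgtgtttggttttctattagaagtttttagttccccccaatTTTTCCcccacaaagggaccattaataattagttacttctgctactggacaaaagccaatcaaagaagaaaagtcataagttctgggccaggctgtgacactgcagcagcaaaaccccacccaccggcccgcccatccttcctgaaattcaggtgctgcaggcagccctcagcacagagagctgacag
Tnfrsf9, second start: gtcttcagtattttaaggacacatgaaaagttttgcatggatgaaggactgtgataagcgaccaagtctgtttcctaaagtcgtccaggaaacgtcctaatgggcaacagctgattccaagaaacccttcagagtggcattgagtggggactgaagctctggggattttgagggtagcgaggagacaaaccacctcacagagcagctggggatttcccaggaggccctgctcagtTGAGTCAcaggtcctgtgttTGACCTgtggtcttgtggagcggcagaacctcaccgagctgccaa
Cd27: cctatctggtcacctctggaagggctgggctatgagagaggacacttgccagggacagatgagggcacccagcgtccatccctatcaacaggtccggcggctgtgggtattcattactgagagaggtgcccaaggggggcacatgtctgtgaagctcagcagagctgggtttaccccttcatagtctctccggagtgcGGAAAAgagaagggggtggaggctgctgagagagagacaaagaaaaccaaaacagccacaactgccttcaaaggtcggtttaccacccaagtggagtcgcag
Cd48: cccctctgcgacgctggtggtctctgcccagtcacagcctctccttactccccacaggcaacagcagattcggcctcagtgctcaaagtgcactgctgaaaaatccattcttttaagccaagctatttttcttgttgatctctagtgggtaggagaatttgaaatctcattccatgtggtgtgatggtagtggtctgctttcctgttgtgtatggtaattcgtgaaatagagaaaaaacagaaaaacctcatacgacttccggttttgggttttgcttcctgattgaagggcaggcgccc
The upstream start of Tnfrsf9 holds TTTTCC at -138 and the downstream start TGAGTCA at -15 and TGACCT at 6, counted from the start. Cd27 holds GGAAAA at -52 and Cd48 holds none of the motifs in this window. Of 32851 mouse promoter windows of this length 16.3% hold the first motif, 7.81% the second and 23.4% the third, and the matches are given as a description only.

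The ligands ranged from not detectable at this depth to moderate levels in these T cell samples. Under blockade Tnfsf9, the ligand of 4-1BB, measured 80.5 to 366 in the wild type (median 170) and 0 to 147 in the knockout (median 80.6), and Cd70, the ligand of CD27, measured 1.02 to 238 (median 71.3) and 0 to 72.1 (median 2.47). Their log2 differences were -3.07 (SE 1.13, adjusted p = 0.355) and -2.90 (SE 1.32, adjusted p = 0.477), values stretched by samples at 0. Cd86 was at 148 to 654 in the 18 samples, while Cd80 reached 211, Pvr 262 and Icosl 49.1 at most, and Icosl was at 0 in all 6 samples of Nr2f6-/- anti-PD-L1. Pvrl2 reached at most 12.5. Tnfsf15, the ligand of DR3, was at or under 1.88 everywhere. Cd2, the partner of CD48 on T cells, ran from 2694 to 5729 in the wild type and from 4632 to 5431 in the knockout under blockade, a difference of 0.46 (adjusted p = 0.371). Of 6 ligands and counter-receptors tested, 1 was higher and 2 lower at an unadjusted p under 0.05 (background 9.73%), and 0 passed the adjusted threshold.

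Receptors that compete for the same ligands were measured beside their partners. Ctla4, which takes CD80 and CD86 from CD28, was at 584 to 1946 in the wild type and 1008 to 2928 in the knockout under blockade, a log2 difference of 0.53 (adjusted p = 0.592) close to that of Cd28. The log2 ratio of Cd28 to Ctla4 was 0.59 ± 0.84 (SD, n = 6) and 0.72 ± 0.27 (SD, n = 6), so it differed by less than the spread between samples. Tigit, the inhibitory partner of CD226, was at 23.0 to 110 and 72.9 to 362, a difference of 1.10 (95% interval -0.53 to 2.73, adjusted p = 0.694). The log2 ratio of Cd226 to Tigit was 3.62 ± 0.93 in the wild type and 1.72 ± 1.10 in the knockout (SD, n = 6 each), against medians of 4.22 and 4.58 under IgG2b. The lowest mean was that of the knockout under blockade, with samples from -0.26 to 2.99, which overlapped the wild-type range of 2.52 to 5.07. They also overlapped the IgG2b ranges of 2.91 to 4.88 in the wild type and 2.46 to 5.29 in the knockout. Cd96, the third receptor for CD155, differed by 0.34 (adjusted p = 0.698).

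**Figure D3:**
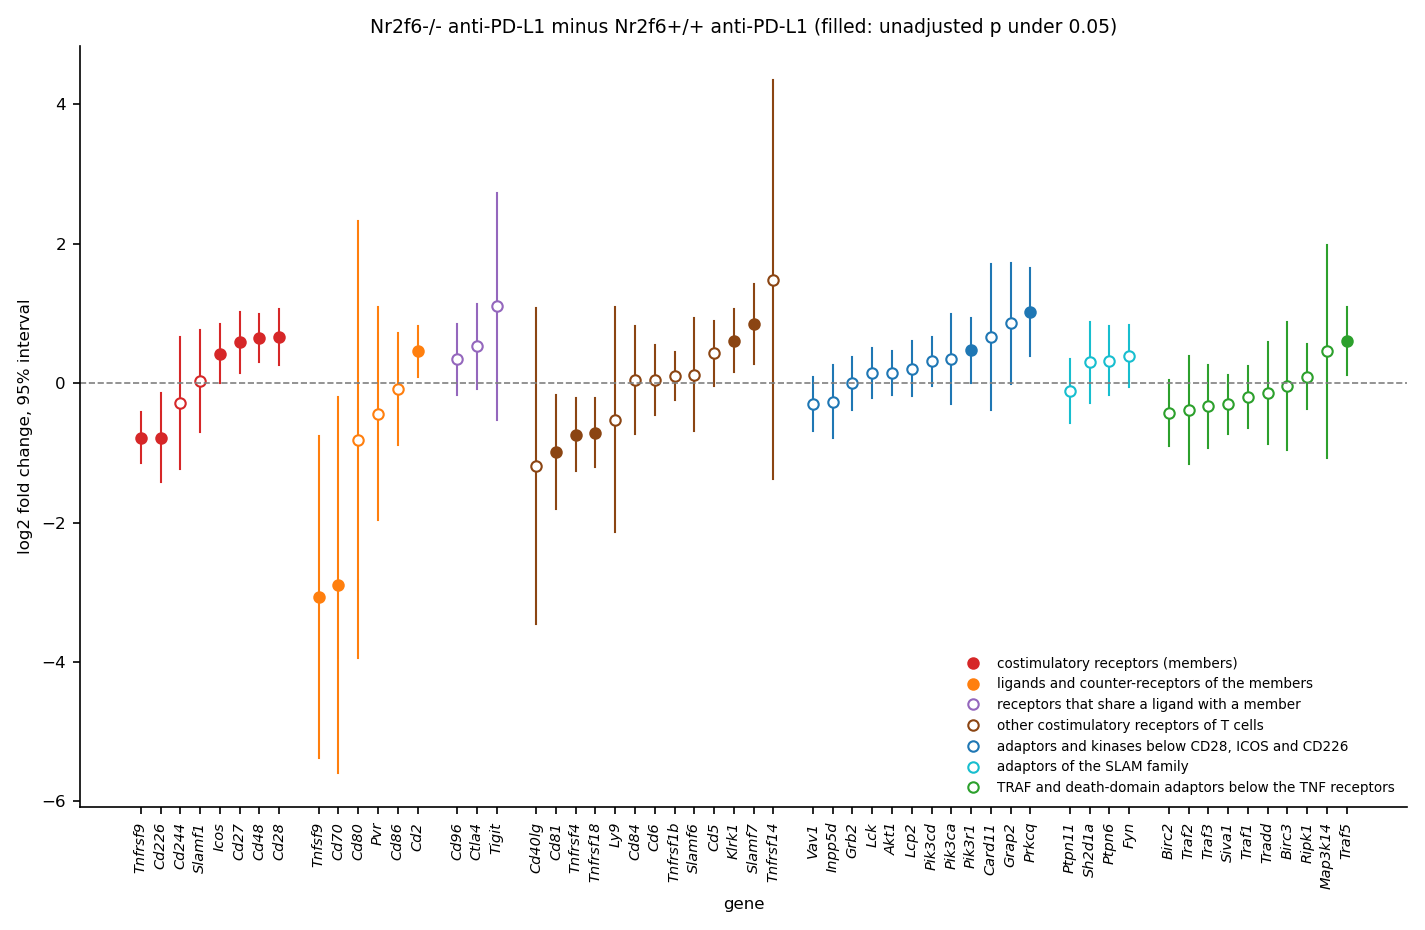
Log2 fold changes (y axis) with 95% intervals of Nr2f6-/- anti-PD-L1 minus Nr2f6+/+ anti-PD-L1 for 8 receptors and the genes around them (x axis, grouped by role and sorted by value). Filled points have an unadjusted p under 0.05, and none passed the adjusted threshold. Tnfrsf9, Tnfrsf4 and Tnfrsf18 lie near -0.78, -0.74 and -0.71, while Cd27, also a TNF receptor, lies near 0.59. Of 13 other costimulatory receptors, 8 have positive and 5 negative estimates.

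Other costimulatory receptors and the signaling genes below the receptors were counted from lists. Of 13 other costimulatory receptors tested under blockade, 2 were higher and 3 lower in the knockout at an unadjusted p under 0.05, against 4.66% and 5.07% of all genes, with a list median of 0.049. The lower ones were OX40 (Tnfrsf4, -0.74, adjusted p = 0.315) and GITR (Tnfrsf18, -0.71, adjusted p = 0.301), TNF receptors that, like 4-1BB, appear on activated and regulatory T cells, and Cd81 (-0.99, adjusted p = 0.392). The higher ones were Slamf7 (0.85, adjusted p = 0.278) and Klrk1 (0.61, adjusted p = 0.347), which encodes the NKG2D receptor of CD8+ T and NK cells. Klrk1 was the only gene of these lists to pass in any comparison, at 1.27 in Nr2f6-/- anti-PD-L1 against Nr2f6+/+ IgG2b (SE 0.27, adjusted p = 0.0191; 0.617% of all genes passed). Below CD28, ICOS and CD226, 2 of 12 adaptors and kinases were higher at an unadjusted p under 0.05 and 0 were lower (all genes 4.66% and 5.07%): Prkcq, which encodes the PKC-theta kinase recruited by CD28 (1.02, adjusted p = 0.22) and is also in the study's list from these samples, so not independent of it, and Pik3r1 (0.47, adjusted p = 0.508). Among 10 TRAF and death-domain adaptors 1 was higher at that level and 0 were lower, namely Traf5, an adaptor of CD27 (0.60, adjusted p = 0.375), and 0 of 4 SLAM adaptors reached it, against the same shares of all genes.

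Markers of T cell subsets were measured beside these values. Cd8a was at 5361 to 13579 in the wild type and 11329 to 17120 in the knockout under blockade, a difference of 0.54 (adjusted p = 0.278), and Cd8b1 differed by 0.67 (adjusted p = 0.121). The log2 ratio of Cd8a to Cd4 was 1.15 ± 1.23 and 1.81 ± 0.73 (SD, n = 6 each). Foxp3, the defining gene of regulatory T cells, measured 243 to 912 and 184 to 910, and differed by -0.029 (adjusted p = 0.988). Of 4 regulatory T cell markers tested, 1 had a higher and 3 a lower estimate (median -0.047), and only Ikzf2 had an unadjusted p under 0.05 (-0.51, adjusted p = 0.381). The part of CD8+ and regulatory T cell shares in the receptor values was not tested.

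Across the 18 samples Cd28 and Tnfrsf9 were the pair of receptors with the most negative relation, with Pearson r = -0.70 and Spearman rho = -0.64, and r = -0.70 after the group means were taken out. The most positive pair was Cd28 and Cd48 (r = 0.61, rho = 0.60), which fell to 0.22 after the group means were taken out. These are descriptions over 18 samples that share groups and size factors, out of 36 pairs of receptors.

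**Figure D4:**
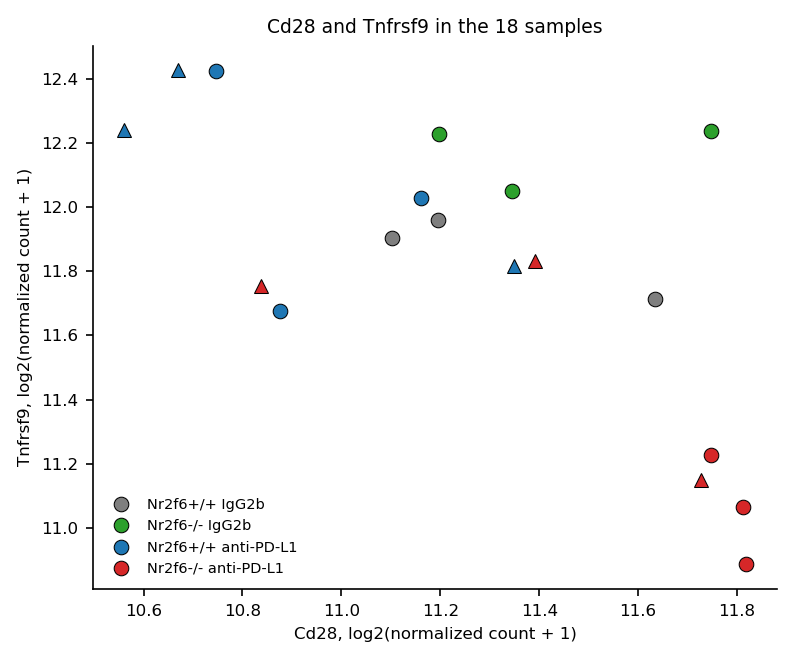
Tnfrsf9 (y axis) against Cd28 (x axis), both as log2(normalized count + 1), in the 18 samples colored by group, with circles for the first and triangles for the second library set. The 4 samples at the lower right, high in Cd28 and lowest in Tnfrsf9, are all Nr2f6-/- anti-PD-L1, and the other two of that group lie among the remaining samples (r = -0.70 over all samples).

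The genes whose levels followed each receptor most closely over the 18 samples were taken from 8533 candidates averaging 100 or more normalized counts, as a description. Cd28 was followed by Runx2 (r = 0.79, rho = 0.78) and Socs3 (r = 0.78, rho = 0.83), and Icos by Commd3 (r = 0.74, rho = 0.75) and Yipf1 (r = 0.73, rho = 0.78). Tnfrsf9 was followed by Hsp90aa1 (r = 0.84, rho = 0.76) and Pkp4 (r = 0.83, rho = 0.78), and Cd27 by 4632428N05Rik, an older symbol of the VISTA gene Vsir (r = 0.85, rho = 0.85), and the T cell receptor gene Trbc2 (r = 0.79, rho = 0.79). Cd226 was followed by Ap4e1 (r = 0.87, rho = 0.64) and Tcf4 (r = 0.86, rho = 0.66). Among the SLAM receptors, Cd48 was followed by Rac2 (r = 0.86, rho = 0.83) and Srgn (r = 0.80, rho = 0.81), Slamf1 by Ormdl3 (r = 0.74, rho = 0.74) and Ankrd13a (r = 0.72, rho = 0.76), and Cd244 by Mrm1 (r = 0.81, rho = 0.74) and Suv39h1 (r = 0.81, rho = 0.75). Tnfrsf25, mostly near its floor, was followed by Btg1 (r = 0.75, rho = 0.78) and Pdcl (r = 0.73, rho = 0.74).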

How the data were processed

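RNA from 18 samples of sorted tumor-infiltrating T cells was sequenced on an Ion Torrent instrument from QuantSeq 3' libraries. The authors trimmed reads with cutadapt and Trimmomatic (reads under 22 nucleotides removed), aligned them to mm10 with STAR and then Bowtie2, counted them with HTSeq and deposited normalized counts, a signal in which each read count is divided by 1 size factor per sample. Whole reads were recovered for 100% of values (tolerance 0.01); tool versions, gene annotation and strand setting are not given in the sources used here. Groups were taken from the sample titles.

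The main test was limma 3.58.1 with a trend (R 4.3.3) on log2(normalized count + 1), for genes with a mean of at least 10, in one model of 4 group means, with Benjamini-Hochberg adjustment over 11992 genes and a threshold of 0.05. Fold changes are differences of group means on this scale: the pseudocount shrinks those of genes that are low throughout, and samples at or near 0 can make them larger than the ratio of mean normalized counts. Since values are not counts, edgeR 4.0.16 and DESeq2 1.42.0 on the recovered reads were alternatives, beside other pseudocounts, filters, scalings and left-out samples. The test was checked on simulated counts with planted 4-fold changes and the same dispersion for all genes. Most receptor differences here were smaller, so that check does not bear on the power to detect them. Positions are from GENCODE M21.

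Genes named were the 9 receptors, list genes that passed in any comparison, ligands and competing receptors, and for each receptor the 2 genes with the highest correlation; signaling genes, other receptors, the T cell markers named and the promoters shown were picked after their values were seen. For 1 gene of the signaling lists, values are not reported here and it was left out of the list counts. The members and lists were chosen with earlier results of these data known. Intervals are 95% intervals.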

Additional observations from a re-analysis of the deposited data

Results flagged for a closer look

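The effect of PD-L1 blockade on Tnfrsf9 differed between the genotypes by -1.10 on the log2 scale by the test of the difference itself before adjustment, with an estimate of -0.85 in Nr2f6-/- and 0.24 in Nr2f6+/+ samples. After adjustment over 11992 genes the p was 0.755 in limma. Over the alternatives the difference ran from -1.30 to -0.97 and the adjusted p from 0.0819 (DESeq2) to 0.999. A test for a sample far from the others in groups of 6 found 0 among 18 receptor and group combinations.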

How the results depend on the processing

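Of 63 receptor estimates (9 receptors in 7 comparisons), 30 changed sign under at least 1 alternative; 0 of these 30 had passed the adjusted threshold or an unadjusted p under 0.05, and the largest, Tnfrsf25 apart, was 0.40 in size on the log2 scale. Of the 9 receptors, 0 passed in Nr2f6-/- against Nr2f6+/+ under blockade, but 1 (Tnfrsf9) did with quantile normalization, the library set as a covariate or the replicate block, and 3 (Cd28, Tnfrsf9, Cd48) did in DESeq2; leaving out 1 sample gave 0 to 1. For Nr2f6-/- anti-PD-L1 against Nr2f6-/- IgG2b the count of 0 became 1 (Tnfrsf9) with the library set, the replicate block or DESeq2, and 0 to 1 with 1 sample left out (1 without Nr2f6-/- anti-PD-L1 replicate 4). For Nr2f6-/- anti-PD-L1 against Nr2f6+/+ IgG2b it became 1 (Cd27) with a pseudocount of 10, the library set, the replicate block or DESeq2, 1 (Tnfrsf9) when scaled to the Cd3 genes, and 0 to 1 with 1 sample left out (1 without Nr2f6+/+ anti-PD-L1 replicate 3, 4 or 6 or Nr2f6-/- anti-PD-L1 replicate 6). For Nr2f6-/- IgG2b against Nr2f6+/+ anti-PD-L1 the count of 1 (Cd48) became 0 with a pseudocount of 0.5, no filter, only the groups compared, the library set, the replicate block, the first library set alone, edgeR or the Cd3 scaling, and 0 to 1 with 1 sample left out (0 in 14 of 18). The cause of these moves was not tested.

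Same-numbered replicates did not deviate together (21 pairs, r from -0.055 to 0.063), so the reported fit has no replicate block: 5 of 18 samples correlated best with a sample of their own number. Over all genes the replicate block passed 31, 27, 79 and 16 genes in these 4 comparisons where the reported fit passed 21, 39, 74 and 55, and 12 for 29 for blockade in the wild type; edgeR passed 41 for 74 and 19 for 29 in the third and the last of these. DESeq2 passed 184 for 21, 88 for 0 (genotypes under IgG2b), 94 for 29 (blockade in the wild type), 230 for 39, 177 for 74, 281 for 55 and 76 for 0 (the difference between the genotypes). Scaling to the Cd3 genes moved the median of all genes by -0.52 to 0.13 on the log2 scale. For the genes that the text calls or that had an unadjusted p under 0.05, single values stayed on their side of the threshold 648 times, lost the call 80 times and gained it 22 times, with no change of direction. With 3 IgG2b samples per genotype, intervals such as -0.94 to 1.73 for Cd244 limit what could be detected.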
